A study of Mus musculus with 9 samples.

Results

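The proteases that shed the outer skin and the inhibitors that hold them back were followed through the epidermis of E18.5 mouse embryos lacking the epithelial splicing regulators Esrp1 and Esrp2. The list held 10 genes of the 38203 in the table, chosen by symbol: the kallikrein-related peptidases Klk5, Klk7, Klk8, Klk10 and Klk11, the membrane serine proteases St14 and Prss8, and the Kazal-type inhibitors Spink5, Spink7 and Spink12. Each symbol had 1 row, and all 10 passed the filter of an average above 0.1 FPKM (sequenced fragments scaled to exon length and to library size) in at least 1 genotype; the WT average of Spink12 lay below it. The list was drawn up with the values of these libraries known, so the differences given for its members are descriptions and add no independent support.

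The study profiled 4 genotypes in 9 polyA-selected libraries, each from the epidermis of 1 embryo, separated from the dermis with trypsin. WT (2 libraries) carried both genes, KO (3) was Esrp1 KO with Esrp2 WT, KH (2) was Esrp1 KO with 1 KO allele of Esrp2, and DKO (2) was Esrp1 KO and Esrp2 KO. All embryos came from a mixed C57BL6/129Sv background back-crossed into C57BL6, and the KO alleles were germline: a deletion of Esrp1 exons made with Zp3-Cre and an Esrp2 KO allele from a single ES cell line, so every tissue of the embryo lacked them. The text on RNA extraction in the labels gives the controls as Esrp2-/-, whereas the genotype labels call them WT. Esrp2 measured 118 and 136 FPKM in the WT libraries against 0.0843 and 0.0463 FPKM in DKO. It measured 88.1, 88.4 and 131 FPKM in KO and 38.6 and 89.5 FPKM in KH. KH replicate 2 thus had the Esrp2 level of KO replicates 1 and 2, and groups here follow the genotype labels. Esrp1 measured 119 and 142 FPKM in WT and 18.2 to 55.1 FPKM in the 7 libraries that carry the deletion, highest in KH replicate 2. This gene-level value includes the exons outside the deletion.

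In normal skin, keratinocytes of the granular layer secrete kallikreins into the space between the outermost cells, where Klk5 activates itself and then Klk7 and others, and where these proteases cut the desmosomal proteins that hold corneocytes together. Spink5 encodes LEKTI, whose fragments bind Klk5 and Klk7 and are released as the surface becomes more acidic; loss of LEKTI causes Netherton syndrome, in which the barrier is shed too early. St14 (matriptase) and Prss8 (prostasin) form a second proteolytic pathway that acts on profilaggrin and the epithelial sodium channel and is needed for the barrier of the newborn.

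The clearest pattern among the members was the presence of a pair of small inhibitors, Spink7 and Spink12, in DKO epidermis and nearly nowhere else. Most of the proteases, and Spink5, spread more widely within KO, KH and DKO than within WT. Neither Spink5 nor any of the proteases passed the test in any comparison. In DKO against WT, 2 of 10 members passed the call used for all genes (limma, Benjamini-Hochberg adjusted p under 0.05, average FPKM over 2-fold apart), both of them higher. Of the 16897 genes tested, 0.728% passed in this comparison and 0.479% were higher; the list was chosen with this contrast known, and nothing is read from its larger share. In KO against WT and in KH against WT none of the 10 members passed, where 0.0296% of all genes did in each. The count of members at an unadjusted p under 0.05 was also 0 in both, against 765 and 629 of all genes. Against KO and against KH the same 2 members passed, both higher in DKO; 0.639% of all genes passed against KO (0.521% higher) and 0.426% against KH (0.385% higher).

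**Figure D1:**
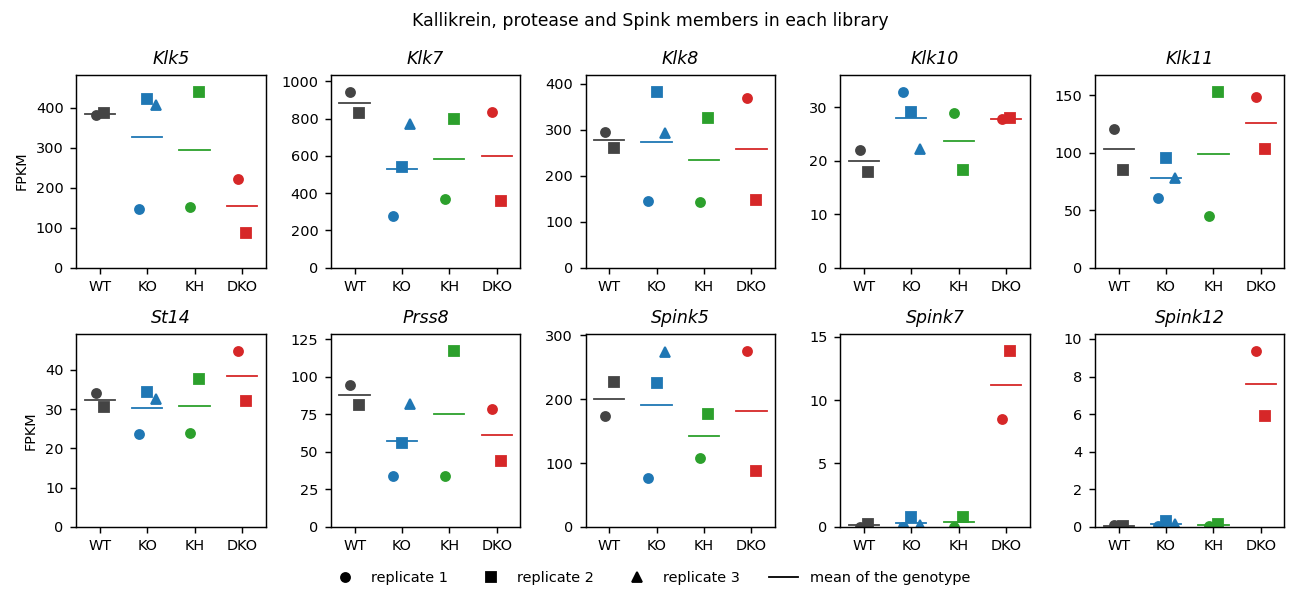
FPKM of the 10 members (1 panel each, vertical axis from 0) in the 9 libraries by genotype, with symbols for replicates and a line at the genotype mean. Spink7 and Spink12 sit at 5.91 FPKM or more in DKO and below 0.8 FPKM elsewhere, whereas Klk5, Klk7, Klk8, Prss8 and Spink5 are low in the same 3 libraries (KO replicate 1, KH replicate 1 and DKO replicate 2).

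Spink7 (ENSMUSG00000060201), a small secreted inhibitor known from the oesophageal epithelium, measured 8.54 and 13.8 FPKM in the DKO libraries. It was listed at 0 and 0.248 FPKM in WT, at 0, 0.749 and 0.117 FPKM in KO and at 0 and 0.793 FPKM in KH. The DKO libraries stood above all 7 others, and the 3 libraries listed at 0 belonged to 3 genotypes. The deposited table places Spink7 in a merged locus with 3 other genes (Gm17732, Spink10 and Spink13), so its level rests on how reads were split there. On the log2(FPKM + 1) scale, which understates the change of a gene this low, DKO exceeded WT by 3.41 ± 0.36 (SE; 95% confidence interval 2.59 to 4.23; limma adjusted p = 0.00305). The difference from KO was 3.25 (adjusted p = 0.00246) and that from KH 3.15 (adjusted p = 0.00645) in the same limma fit. Spink7 lost its call under a pseudocount of 0.1 (limma adjusted p = 0.0657, 0.0871 and 0.183 against WT, KO and KH) and without a filter on low values (0.106, 0.107 and 0.168). Leaving out the 3 libraries lowest in granular layer markers, described further on, left adjusted p at 0.0934, 0.122 and 0.193, with 1 DKO library in the fit, and without DKO replicate 2 alone the call was lost in DKO against KH (adjusted p = 0.0688). It was lost there too when only the 2 genotypes compared were fitted (limma adjusted p = 0.0919).

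Spink12 (ENSMUSG00000061144), a second short Kazal-type inhibitor, measured 9.34 and 5.91 FPKM in DKO. Its level was 0.0767 and 0.0669 FPKM in WT, 0.0592, 0.287 and 0.154 FPKM in KO, and 0.0543 and 0.168 FPKM in KH. Again both DKO libraries stood above every other. DKO exceeded WT by 2.98 ± 0.195 (SE; 95% confidence interval 2.54 to 3.42; limma adjusted p = 0.000184), KO by 2.86 (adjusted p = 0.000118) and KH by 2.93 (adjusted p = 0.000238). The call held in all 19 alternative settings of each of these comparisons. Of these settings, dropping the fold threshold could not remove a call, and a filter at 1 FPKM kept Spink12 through DKO alone. DKO replicate 1, where Spink12 was higher, was the shallowest library as far as the steps of its lowest FPKM values show, and the part of depth in these values was not tested.

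The pair lies on chromosome 18 with Spink5, Spink12 81.9 kb from Spink5 and Spink7 18.48 Mb further on. Its summed FPKM made up 6.11% and 18.3% of the summed FPKM of the 3 inhibitors in the DKO libraries and 0.0441% to 0.540% in the other 7. Spink5 therefore remained the most abundant of the 3 by a wide margin in every library, DKO included. Spink7 and Spink12 followed each other over the 9 libraries (Pearson r = 0.96 of log2(FPKM + 1), a value set by the DKO libraries).

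Spink5 (ENSMUSG00000055561) measured 174 and 226 FPKM in WT, 75.8, 225 and 273 FPKM in KO, 108 and 177 FPKM in KH, and 275 and 88.1 FPKM in DKO. The highest and the second lowest of the 9 values were both from DKO, and the genotypes overlapped. The fitted difference of DKO from WT was -0.35 ± 0.673 (SE) on the log2 scale, with a 95% confidence interval from -1.88 to 1.19 that leaves room for a change of more than 2-fold either way. It was -1.16 without DKO replicate 1 and turned to 0.47 without DKO replicate 2.

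**Figure D2:**
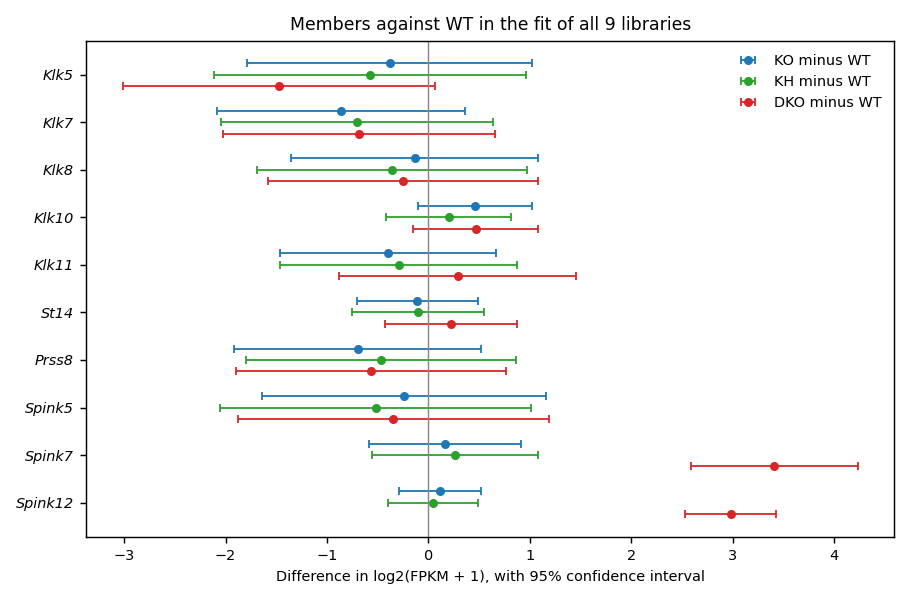
Differences from WT in log2(FPKM + 1) for the 10 members in KO, KH and DKO, as points with 95% confidence intervals from the fit of all 9 libraries. The intervals for Spink7 and Spink12 in DKO start at 2.59 and 2.54, and all others include 0.

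The kallikreins of the list lie in 1 cluster on chromosome 7, with Klk9 between Klk10 and Klk8 and Klk6 between Klk7 and Klk5. Klk5 (ENSMUSG00000074155; GRCm38 chr7:43841971-43851181, plus strand), the protease at the head of the cascade, measured 381 and 386 FPKM in WT and 222 and 85.2 FPKM in DKO. It measured 147, 421 and 408 FPKM in KO and 150 and 439 FPKM in KH. Both DKO libraries lay below both WT libraries, but KO replicate 1 and KH replicate 1 lay between the DKO values. The average in DKO was 0.4 of that in WT, a log2 difference of -1.47 ± 0.675 (SE; 95% confidence interval -3.01 to 0.07; limma adjusted p = 0.382), which did not pass. It was -2.16 without DKO replicate 1 and -0.79 without DKO replicate 2, and it was also -0.79 without the 3 libraries lowest in granular layer markers.

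Klk7 (ENSMUSG00000030713; chr7:43811294-43816359), the chymotrypsin-like protease that Klk5 activates, was the most abundant member in every library, at 942 and 829 FPKM in WT and 836 and 360 FPKM in DKO. It measured 275, 541 and 771 FPKM in KO and 368 and 799 FPKM in KH. Both sets lay below the WT libraries, while DKO overlapped WT. The differences of -0.86 for KO and -0.70 for KH did not pass (limma adjusted p = 0.853 and 0.980).

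Klk8 (neuropsin, ENSMUSG00000064023; chr7:43797577-43803826), which in skin acts beside Klk5 and Klk7, measured 296 and 261 FPKM in WT, 144, 382 and 293 FPKM in KO, 144 and 325 FPKM in KH, and 370 and 147 FPKM in DKO. As with Spink5, the DKO libraries lay on both sides of WT. The difference of DKO from WT was -0.25 ± 0.585 (SE), and its sign turned when DKO replicate 2 was left out.

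The promoters of Klk5, Klk7 and Klk8 are printed because Klk5 parted from the other 2 in DKO, as described further on. They are the 300 bases around the RefSeq start (GRCm38.p6, plus strand, 250 before it and 50 from it on), with matches to any of 5 motifs in capitals. The window of Klk5 is chr7:43842019-43842318, that of Klk7 chr7:43811044-43811343 and that of Klk8 chr7:43797327-43797626.
Klk5: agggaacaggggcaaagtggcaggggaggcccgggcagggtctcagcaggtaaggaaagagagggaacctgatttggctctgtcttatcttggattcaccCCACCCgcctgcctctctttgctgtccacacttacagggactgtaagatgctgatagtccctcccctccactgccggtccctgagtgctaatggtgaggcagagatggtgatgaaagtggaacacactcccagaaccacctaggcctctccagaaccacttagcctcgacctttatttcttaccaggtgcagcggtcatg
Klk7: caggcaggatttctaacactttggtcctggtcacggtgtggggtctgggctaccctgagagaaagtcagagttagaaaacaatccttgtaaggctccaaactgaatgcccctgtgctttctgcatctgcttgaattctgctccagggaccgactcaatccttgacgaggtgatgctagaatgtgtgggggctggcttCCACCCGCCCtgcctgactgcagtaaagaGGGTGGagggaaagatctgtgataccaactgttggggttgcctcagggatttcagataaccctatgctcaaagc
Klk8: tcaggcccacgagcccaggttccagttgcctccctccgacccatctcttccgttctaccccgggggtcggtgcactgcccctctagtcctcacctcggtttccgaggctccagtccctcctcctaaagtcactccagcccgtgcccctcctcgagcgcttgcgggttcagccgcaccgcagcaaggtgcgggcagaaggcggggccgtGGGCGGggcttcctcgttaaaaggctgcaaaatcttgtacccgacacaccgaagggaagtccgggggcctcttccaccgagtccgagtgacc

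Both strands were searched for CCACCC, an element of the kind that Klf factors bind, for the Sp1-type element GGGCGG, for the AP-1 element TGANTCA, for the Grainyhead element AACCGGTT and for TATAAA, the core promoter box. Klk5 holds 1 CCACCC, whose first base lies 150 bases before the start base. Klk7 holds CCACCC at 53 bases before the start and its reverse complement at 24 bases before it, and the first overlaps a reverse GGGCGG at 49 bases before the start. Klk8 holds a forward GGGCGG at 42 bases before the start and no CCACCC. Its window has 23 CpG dinucleotides and a GC content of 65.3%, against 5 CpG and 55.7% in Klk5 and 4 CpG and 52.0% in Klk7. Over the 6 promoters that the table holds for 5 of the 10 members, CCACCC was found in 4 and GGGCGG in 2, and among all 32851 promoters in 31.5% and 35.7%. TGANTCA, AACCGGTT and TATAAA were found in 0 of the 6, and in 7.81%, 0.146% and 13.6% of all promoters. These are matches of letters in 1 window, not binding sites. RefSeq places the Klk5 start at the start of its locus in the deposited table, and GENCODE M21 places it further upstream.

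Klk11 and Klk10 are neighbours upstream of Klk9 and Klk8. Klk10 (ENSMUSG00000030693; chr7:43781035-43785410), a kallikrein-related peptidase of lower abundance, measured 22.1 and 17.9 FPKM in WT, 32.8, 29.2 and 22.2 FPKM in KO, 29.0 and 18.2 FPKM in KH, and 27.8 and 28.0 FPKM in DKO. It was the only kallikrein of the list with both DKO libraries above both WT libraries, and the difference of 0.47 ± 0.271 (SE) did not pass (limma adjusted p = 0.467). Klk11 (ENSMUSG00000067616; chr7:43774604-43779263), a trypsin-like family member, measured 121 and 84.7 FPKM in WT, 60.8, 95.2 and 77.8 FPKM in KO, 44.4 and 153 FPKM in KH, and 148 and 103 FPKM in DKO. DKO overlapped WT and KH but lay above KO, and KH held both the lowest and the highest value.

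St14 (matriptase, ENSMUSG00000031995; chr9:31089402-31131853, minus strand) measured 34.1 and 30.6 FPKM in WT, 23.7, 34.3 and 32.5 FPKM in KO, 23.8 and 37.8 FPKM in KH, and 44.7 and 32.0 FPKM in DKO, with overlap between the genotypes. Prss8 (prostasin, ENSMUSG00000030800; chr7:127925716-127930104, minus strand), the GPI-anchored partner of matriptase, measured 94.4 and 81.1 FPKM in WT and 78.2 and 44.1 FPKM in DKO. It measured 33.5, 56.0 and 81.8 FPKM in KO and 33.7 and 117 FPKM in KH. Both DKO libraries lay below WT, with a difference of -0.57 ± 0.585 (SE; limma adjusted p = 0.680). The Prss8 to St14 ratio was 2.77 and 2.65 in WT, 1.75 and 1.38 in DKO, 1.41, 1.63 and 2.51 in KO, and 1.41 and 3.09 in KH, so DKO lay below WT but not apart from KO and KH.

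Counted over the list, the libraries of DKO and WT did not overlap for 3 members that were higher in DKO (Klk10, Spink7 and Spink12) and 2 that were lower (Klk5 and Prss8). With 2 libraries a genotype this is common: 27.8% of all genes tested lay wholly above WT in DKO and 26.4% wholly below. Against WT, KO lay wholly above in Klk10 and wholly below in Klk7, where 12.6% and 12.1% of all genes did, and KH lay wholly below in Klk7, with 16.6% of all genes. DKO lay wholly above KO in 3 members (Klk11, Spink7 and Spink12) and wholly above KH in 2 (Spink7 and Spink12), against 11.2% and 14.3% of all genes. In DKO against WT the median log2 difference of the 10 members was -0.01 and that of all genes 0.02. The median of the members was -0.19 in KO and -0.33 in KH against WT, where that of all genes was 0. It was 0.15 in DKO against KO and 0.22 in DKO against KH, with -0.003 and 0 for all genes. These medians were not tested.

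Much of the scatter within genotypes fell in the same libraries. The summed FPKM of 14 granular and cornified layer markers (loricrin, filaggrin, involucrin and others) was 9800 in KH replicate 1, 10792 in KO replicate 1 and 12197 in DKO replicate 2, against 24728 to 30386 in the other 6 libraries. In those 3 libraries Klk5, Klk7, Klk8, Prss8 and Spink5 lay below all of the other 6; Klk7, for instance, measured 275 to 368 FPKM against 541 to 942 FPKM. This held for 5 of 10 members and for 9.37% of all genes tested. Klk10 ran the other way, at 28.0 to 32.8 FPKM in the 3 libraries and 17.9 to 29.2 FPKM in the rest. The same 3 libraries summed highest for 8 basal keratinocyte markers (7412 to 8543 FPKM against 4142 to 6611) and for 10 hair follicle markers (621 to 677 FPKM against 367 to 563). They also summed lowest for 8 spinous layer markers (32011.5 to 38605.5 FPKM against 61026.6 to 86109.2), so the shift was not confined to the granular layer. In bulk epidermis, fewer granular and spinous cells and less RNA per such cell cannot be told apart. The part of this shift in the differences above was not tested.

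**Figure D3:**
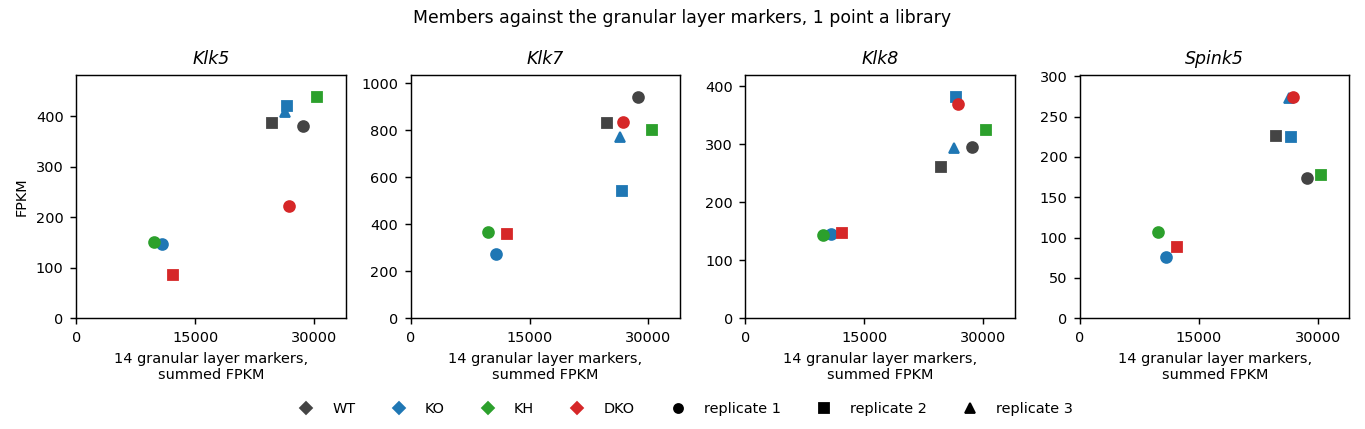
FPKM of Klk5, Klk7, Klk8 and Spink5 (vertical axes) against the summed FPKM of 14 granular and cornified layer markers (horizontal axes), 1 point a library, coloured by genotype. The libraries fall into 3 at 9800 to 12197 FPKM and 6 at 24728 to 30386 FPKM; the DKO points lie low within each of these for Klk5 but not for Klk7, Klk8 and Spink5.

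Against the genes of the same library given here, Klk5 was low in DKO. The ratio of Klk5 to Klk7 was 0.265 and 0.237 in DKO and 0.404 to 0.778 in the other 7 libraries. The ratio of Klk5 to Klk8 was 0.599 and 0.579 in DKO and 1.02 to 1.48 elsewhere, and that of Klk5 to Spink5 was 0.807 and 0.967 against 1.398 to 2.48. Set against Serpina12 (vaspin, an inhibitor of Klk7), Klk5 was at 0.734 and 0.789 in DKO and 1.26 to 1.69 elsewhere. Per 1000 FPKM of the granular markers, Klk5 measured 8.27 and 6.99 in DKO and 13.3 to 15.8 elsewhere. Its share of the summed FPKM of the 5 kallikreins was 13.8% and 11.8% in DKO and 20.4% to 28.7% elsewhere. These ratios do not depend on the scaling between libraries, and they share the low Klk5 values of the same 2 embryos. They were chosen after the values were seen, so no test is given. Set against the granular markers, Tmprss11f and Flg2, described below, were also lower in both DKO libraries than in any other. The trait was thus not particular to Klk5, and the share of all genes that separate this way was not counted.

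Klk7, Klk8 and Spink5 showed no such separation. Per 1000 FPKM of granular markers Klk7 measured 31.2 and 29.5 in DKO and 20.3 to 37.6 elsewhere, and Klk8 measured 13.8 and 12.1 against 10.3 to 14.7. Spink5 measured 10.2 and 7.23 against 5.83 to 10.97. Klk11 measured 5.53 and 8.48 against 2.95 to 5.63, so that only DKO replicate 2 lay outside the range. The balance of the 5 kallikreins summed against Spink5 averaged 8.56 ± 2.24 (SD, n = 2) in WT, 6.99 ± 1.53 (n = 3) in KO, 8.32 ± 2.08 (n = 2) in KH and 7.02 ± 1.68 (n = 2) in DKO, with overlap between the genotypes. Against all 3 Spink members summed it averaged 8.55 ± 2.24 in WT, 6.98 ± 1.54 in KO, 8.29 ± 2.05 in KH and 6.09 ± 0.867 in DKO, where DKO replicate 1 (5.48) lay below the 5.75 to 10.1 of the 7 libraries of other genotypes and DKO replicate 2 (6.71) within them.

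**Figure D4:**
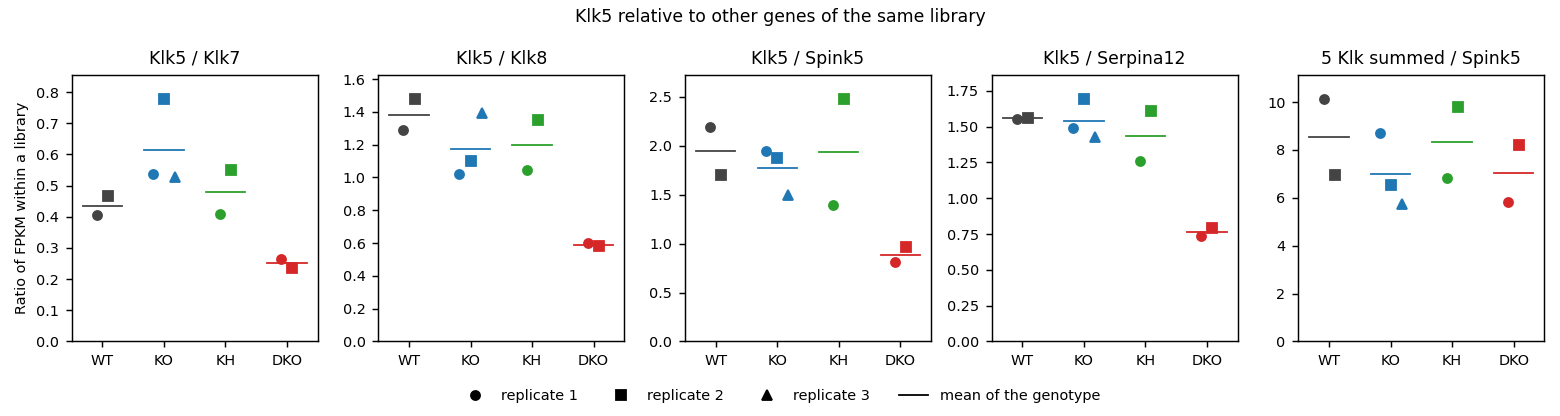
Ratios of FPKM within each library by genotype: Klk5 to Klk7, Klk8, Spink5 and Serpina12, and the 5 kallikreins of the list summed to Spink5 (vertical axes from 0, lines at genotype means). Both DKO libraries lie below the other 7 in the 4 Klk5 panels, at 0.237 to 0.265 against 0.404 or more for Klk7, and within their range in the last panel.

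The rest of the kallikrein locus placed Klk5 between neighbours of other behaviour. The table holds 27 Klk genes with a position, over 539.2 kb on chromosome 7 and all on the plus strand; 14 passed the filter on low values and 8 reached an average of 10 FPKM. In DKO against WT none of the 14 was called. Klk6, a trypsin-like protease immediately upstream of Klk5, measured 34.8 and 21.2 FPKM in DKO, 7.58 and 3.51 FPKM in WT, 0.836 to 3.49 FPKM in KO, and 0.737 and 4.57 FPKM in KH. Klk6 was thus higher in the 2 libraries in which Klk5 was low against its neighbours. Its difference passed against KO (3.35 ± 0.559 SE; limma adjusted p = 0.0416) and not against WT (2.18; adjusted p = 0.182) or KH (3.18; adjusted p = 0.107).

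**Figure D5:**
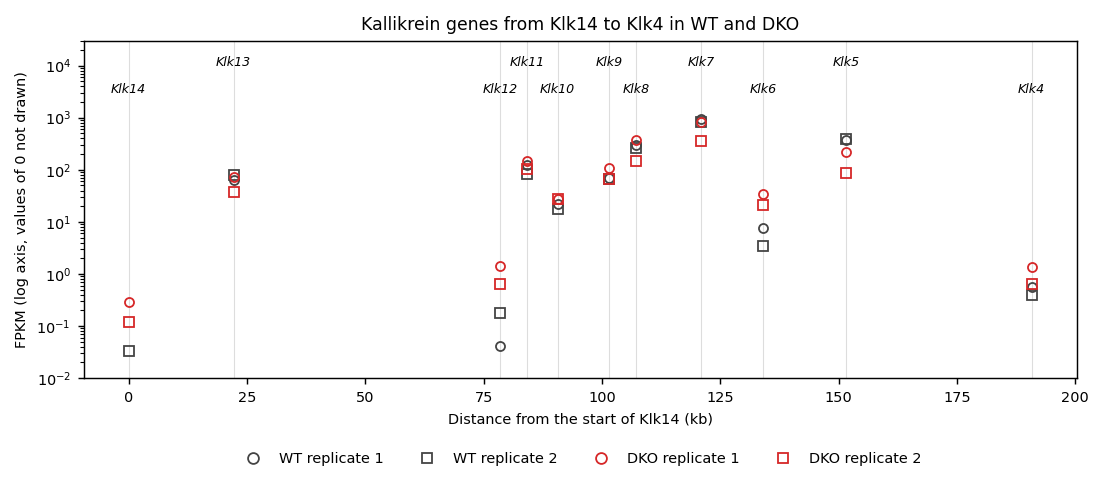
FPKM (log axis) of the 11 kallikrein genes from Klk14 to Klk4 in the WT and DKO libraries, plotted at the distance of each gene's start from that of Klk14 in kb; values of 0 are not drawn. Klk6 lies higher in DKO and Klk5, the next gene, lies lower, at 222 and 85.2 FPKM against 381 and 386 FPKM in WT.

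Of 21 other kallikreins listed, 9 were tested and 0 were called in DKO against WT, with 5 at an unadjusted p under 0.05, a level reached in this comparison by 2324 of the 16897 genes tested. Beside Klk6, those with the largest differences averaging at least 1 FPKM in a genotype were Klk1b9, at 2.34 and 0.737 FPKM in DKO and 0.137 and 0.0803 FPKM in WT, and Klk12, at 1.42 and 0.646 FPKM against 0.0422 and 0.179 FPKM (limma adjusted p = 0.108 and 0.0819). Klk1b9 belongs to a group of near-identical genes among which reads can be shared, so its level is uncertain.

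Of 10 other Spink genes 6 were tested and none passed in any of the 5 comparisons, and in DKO against WT 1 had an unadjusted p under 0.05. Spink14 differed most, at 2.40 and 1.21 FPKM in DKO and 0.344 and 0.0514 FPKM in WT (limma adjusted p = 0.0618). Spink3, at 6.61 and 2.17 FPKM in DKO and 3.81 and 1.94 FPKM in WT, and Spink8, at 1.52 and 2.00 FPKM against 1.39 and 1.20 FPKM, differed less.

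Of 11 other protease inhibitors of skin tested, 1 was called in DKO against WT. Slpi, the secretory leukocyte protease inhibitor, which blocks elastase and Klk7, measured 84.0 and 66.4 FPKM in DKO, 0.363 and 0.243 FPKM in WT, 0.394 to 1.12 FPKM in KO, and 0.927 and 0.651 FPKM in KH. The DKO level exceeded that of WT by 5.86 ± 0.254 (SE; limma adjusted p = 2.73e-05), and Slpi passed against KO and KH as well. Wfdc12 (17.9 and 2.78 FPKM in DKO, 3.07 and 2.08 FPKM in WT) and the cystatin Cst6 (177 and 93.4 FPKM against 78.5 and 65.1 FPKM) did not pass (limma adjusted p = 0.451 and 0.517). Among the inhibitors of matriptase and prostasin, the differences of Spint1 (0.01 ± 0.313 SE) and Spint2 (-0.15 ± 0.299) from WT were small against their errors.

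Of 30 other proteases of skin, 0 were higher and 1 was lower in DKO against WT. Tmprss11e, a transmembrane serine protease, measured 0.0483 and 0.0686 FPKM in DKO and 1.29 and 1.41 FPKM in WT (difference -1.15 ± 0.126 SE; limma adjusted p = 0.00381). Its levels in KO (0.114 to 0.315 FPKM) and KH (0.0908 and 0.324 FPKM) were also below WT, with an adjusted p of 0.0580 for KO in the limma fit. Tmprss11f (10.3 and 3.38 FPKM in DKO, 24.5 and 27.8 FPKM in WT) and Prss22 (9.36 and 7.74 FPKM against 3.06 and 0.983 FPKM) did not pass.

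Among 15 substrates and downstream genes of these proteases, 2 were higher in DKO against WT and none was lower. Scnn1g, the gamma subunit of the epithelial sodium channel, measured 8.22 and 6.62 FPKM in DKO and 2.27 and 1.85 FPKM in WT (1.46 ± 0.212 SE; limma adjusted p = 0.0204). Tslp, the cytokine made by keratinocytes downstream of Klk5 and the receptor Par2, measured 1.42 and 3.02 FPKM in DKO and 0.133 and 0.309 FPKM in WT (1.36 ± 0.206 SE; limma adjusted p = 0.0245). Both passed against KO too, and Tslp against KH. The desmosomal cadherins cut in desquamation did not pass (limma adjusted p = 0.212 for Dsc1 and 0.267 for Dsg1b). Dsc1 measured 190 and 389 FPKM in WT, 59.4 and 72.1 FPKM in DKO, 84.0, 71.7 and 295 FPKM in KO, and 124 and 127 FPKM in KH. Dsg1b measured 50.7 and 122 FPKM in WT, 29.6 and 20.6 FPKM in DKO, 22.4, 36.8 and 81.0 FPKM in KO, and 30.7 and 30.0 FPKM in KH. The low values of both thus lay in KO and KH as well as in DKO, except in KO replicate 3. Flg2 measured 170 and 36.3 FPKM in DKO, 267 and 272 FPKM in WT, 77.6 to 229 FPKM in KO, and 81.5 and 421 FPKM in KH (limma adjusted p = 0.418).

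Genes with the closest pattern were looked for over the 9 libraries among 12187 genes averaging at least 1 FPKM, as a description. Spink7 ran closest with Sprr2g, Sprr2i and Sprr2e (Pearson r of 0.983, 0.982 and 0.980), small proline-rich proteins of the cornified envelope whose genes are near-identical and may share reads. Klk5 ran closest with Rhou (0.993), Psmd8 (0.986) and Cd82 (0.984), Klk7 with Gramd3 (0.986), Rnf103 (0.984) and Rdh9 (0.981), and Spink5 with Emc3 (0.981), 2310047M10Rik (0.980) and Tmem115 (0.979).

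Between 11851 and 12228 genes reached 1 FPKM in each library, and keratin and granular layer genes of epidermis were abundant in every one. Markers of endothelium and skeletal muscle summed to less than 1 FPKM in every library, melanocyte markers to 47.8 and 43.7 FPKM in WT, 68.0 to 83.4 FPKM in KO, 152 and 57.3 FPKM in KH and 94.9 and 208 FPKM in DKO (4 of 6 genes at an unadjusted limma p under 0.05 in DKO against WT), and red blood cell markers to 531 and 78.7 FPKM in WT, 88.8 to 491 FPKM in KO, 13.3 and 149 FPKM in KH and 366 and 1289 FPKM in DKO (4 of 4 genes at an unadjusted limma p under 0.05 in DKO against KH). Dermal fibroblast markers summed to 102 to 215 FPKM, spinous layer markers to 32011 to 86109 FPKM, and immune cell markers to 17.1 and 7.67 FPKM in WT, 12.8 to 28.7 FPKM in KO, 14.4 and 44.4 FPKM in KH and 42.7 and 18.9 FPKM in DKO. Of 66 genes tested on these 10 marker lists, none was called in any of the 5 comparisons, with 14 at an unadjusted limma p under 0.05 in DKO against WT, where 2324 of the 16897 genes tested were, and 5 to 7 in the others; the part of these cells in the members' values was not tested.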

How the data were processed

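Total RNA from the epidermis of individual E18.5 embryos was sequenced by the authors as paired 100 bp reads from a stranded polyA kit. The authors mapped the reads to mm10 and the Ensembl transcriptome with TopHat v1.4.1 and computed gene FPKM with Cuffdiff v2.2.0; how Cuffdiff scaled libraries is not given in the sources used here. The deposited values are FPKM in 9 libraries, plus 4 columns of genotype averages, which were recomputed here. FPKM hold no counts, and read totals were not used here; the steps of the lowest values put libraries at 1 to 3.98 times DKO replicate 1. An exact 0 can be a failed estimate (50 genes were at 0 in 1 library and at least 10 FPKM in another).

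Genes averaging above 0.1 FPKM in at least 1 genotype (16897) were fitted as log2(FPKM + 1) with limma 3.58.1 in R 4.3.3: all 9 libraries, 4 genotype means, eBayes with a trend, Benjamini-Hochberg over all tested genes, in 5 comparisons. A call needed an adjusted p under 0.05 and more than 2-fold in average FPKM, the thresholds of the study. Libraries of a genotype were different embryos. The DKO comparisons share libraries, so they are not independent of each other. Python 3.11.15, pandas 2.3.3, numpy 2.4.6 and matplotlib 3.10.9 made the tables and plots. Positions came from GENCODE M21 and promoters from RefSeq.

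The members and gene lists were chosen with earlier results of these data known. Named with values were the 10 members, the 3 genes per list with the largest DKO against WT difference averaging at least 1 FPKM in a genotype, and the 3 genes most correlated with Klk5, Klk7, Spink5, Spink7; Scnn1g, Tslp, Spint1, Spint2 and Serpina12 were named after their values were seen. Klk8 exons overlap an opposite-strand gene, as do those of Prss8, and Klk8, Klk10 and Klk11 share 1 locus with 5 other genes in the table, Spink7 with 3, and St14 and Prss8 with 1 each, so their levels rest on how Cuffdiff split each locus. Alternatives were no filter, a filter at 1 FPKM, a pseudocount of 0.1, only the 2 genotypes compared, TPM, median ratio scaling, arrayWeights, the replicate number as a block, no fold threshold and each library left out in turn; leaving out the 3 libraries lowest in granular markers was added after seeing the data. Splicing was not analysed here.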

Additional observations from a re-analysis of the deposited data

Results flagged for a closer look

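The difference of DKO from WT was larger than that of KO and of KH from WT for both inhibitors that appeared in DKO, by the direct comparison of the mutant genotypes in the fit across all genes. Spink7 was higher in DKO than in KO by 3.25 and than in KH by 3.15 on the log2(FPKM + 1) scale (limma adjusted p = 0.00246 and 0.00645), but it was not called in 3 of 19 alternatives against KO (adjusted p up to 0.122) and in 5 of 19 against KH (up to 0.193). Spink12 was higher in DKO than in KO by 2.86 and than in KH by 2.93 (limma adjusted p = 0.000118 and 0.000238). Both DKO libraries lay above all 5 KO and KH libraries for each gene. Groups of 2 and 3 libraries were too small for a test of single libraries that stand apart.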

How the results depend on the processing

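Dropping the fold threshold could not remove a call, and the filter at 1 FPKM kept Spink7 and Spink12 through DKO alone. With these settings counted, Spink12 kept its call in all 19 alternatives of each DKO comparison. Spink7 lost it, leaving 1 member called, without a filter, at a pseudocount of 0.1 and without the 3 libraries lowest in granular markers in all 3 DKO comparisons, and in DKO against KH also with only the 2 genotypes compared and without DKO replicate 2. In DKO against WT, KO and KH, leaving out 1 library gave 2 to 2, 2 to 2 and 1 to 2 members called; in KO and KH against WT 0 were called throughout.

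Counts over all genes, in the order DKO against WT, KO against WT, KH against WT, DKO against KO and DKO against KH, were 123, 5, 5, 108 and 72. They became 41, 2, 2, 49 and 34 without a filter, and 67, 0, 15, 55 and 63 without the 3 libraries lowest in granular markers. With the replicate block they were 67, 0, 0, 52 and 43, and the block changed no member's call. Deviations from the genotype mean correlated from -0.60 to 0.49 between same-numbered libraries and from -0.49 to 0.60 between the others. With 2 libraries in a genotype these deviations mirror each other, so the values cannot show whether same-numbered libraries were paired. KO and KH against WT had 1 and 1 at an average of 1 FPKM and 3 and 2 at a pseudocount of 0.1. Fitting only the genotypes compared gave 400 for DKO against WT (141 higher, 259 lower, against 81 and 42), 1 for KH against WT and 33 for DKO against KH; arrayWeights gave 556 for DKO against WT (250 higher, 306 lower) and 10 for KO against WT. Leaving out 1 library gave 54 to 152, 0 to 17, 1 to 33, 62 to 130 and 43 to 102. A pseudocount of 0.1 gave 71 higher and 61 lower in DKO against WT. Rescaling to TPM moved the split of higher and lower genes from 81 and 42 to 96 and 82 in DKO against WT, from 0 and 5 to 1 and 5 in KO against WT, from 88 and 20 to 103 and 49 in DKO against KO, and from 65 and 7 to 71 and 26 in DKO against KH, where the median of all genes fell to -0.11; the 2 members called were called there too. With 1 library left out, the lowest counts came without WT replicate 2 in DKO against WT (54) and DKO against KH (43).

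Signs turned only for differences that were not called. Without the 3 libraries lowest in granular markers, Spink5 and Klk8 in DKO against WT became 0.47 and 0.41 and Klk5 became 0.11 in KO and 0.19 in KH against WT. Leaving out 1 library moved Klk5 in DKO against WT between -2.16 and -0.79, with no change of sign. It moved Spink5 between -1.16 (without DKO replicate 1) and 0.47 (without DKO replicate 2), Klk8 between -0.91 and 0.41 and St14 between -0.014 and 0.46 in DKO against WT, for the same libraries. It also moved Klk5 between -0.64 and 0.11 and Spink7 between -0.080 and 0.32 in KO against WT, and Klk5 between -1.35 and 0.19, Spink7 between -0.16 and 0.68 and Spink12 between -0.024 and 0.12 in KH against WT. Over all members, comparisons and alternatives, 59 of 950 values changed sign, none of them called.

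The ratio of kallikreins to Spink5 became 1.95, 1.77, 1.94 and 0.887 in WT, KO, KH and DKO with Klk5 alone, and 4.54, 2.95, 3.97 and 3.56 with Klk7 alone. Against all 3 Spink members summed it was 8.55, 6.98, 8.29 and 6.09. Leaving out 1 library moved it between 6.97 and 10.1, 6.13 and 7.61, 6.84 and 9.79, and 5.83 and 8.21. The causes of these changes were not tested.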
